A study of Mus musculus and Canis lupus familiaris and Equus caballus with 9 samples.

Results

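The 504 regions described here are the mouse NRSF peaks that lie far from genes, out of 2357 mouse peaks and 12075 peaks in the 4 lists of the series. They were chosen by position alone: the midpoint of a peak had to lie outside the span of every annotated gene, protein-coding or not, and more than 10 kb from every annotated gene end. They made up 21.4% of the mouse list (exact 95% interval 19.7 to 23.1%). The other 1853 peaks were 1398 with a midpoint inside a gene and 455 outside genes but within 10 kb of a gene end.

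The peaks came from RAW264.7, an established macrophage line of BALB/c origin grown without any treatment, at passages 13 to 15. Chromatin fixed with 1% formaldehyde was precipitated with a monoclonal antibody against NRSF in 2 samples, and 1 sample of input DNA served as the control. The antibody and the cells were the same in both precipitated samples, and the labels do not say whether these came from separate cultures. A single list, with no height or score, stands for both, so no value here has a replicate error. Intervals cover counting error, the depth of the libraries is unknown, and macrophage identity could not be checked because a peak list holds no expression.

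NRSF, whose gene is Rest, is a zinc-finger protein that represses neuronal genes in cells that are not neurons. It binds a long DNA element known as RE1 or NRSE and recruits corepressors that remove activating histone marks. Elements of this kind are known at promoters, inside introns and at sites distant from any gene, and a distant site does not by itself name the gene it acts on.

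Regions far from genes carried fewer peaks than their length. Sequence that met the same rule, counted on each chromosome between its first and its last annotated gene, came to 1021 Mb, or 37.8% of the 2703 Mb in that range, against 21.4% of peaks. There were 0.494 far peaks per Mb of far sequence and 1.10 other peaks per Mb of the remaining sequence. The rule fixed this comparison, so it is a description and was not tested. Every one of the 504 far peaks lay between the first and the last annotated gene of its chromosome.

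Most far peaks lay at moderate distances. The median distance from a midpoint to the nearest gene end was 27.3 kb, with quartiles at 17.4 and 58.5 kb and the farthest at 613 kb. Of the 504, 164 lay 10 to 20 kb from a gene, 63 lay beyond 100 kb and 16 beyond 200 kb. Protein-coding genes were farther away, at a median of 80.9 kb (quartiles 27.6 and 179 kb, maximum 1940 kb), and 217 far peaks had none within 100 kb. For 23 the nearest protein-coding gene was over 500 kb away.

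**Figure D1:**
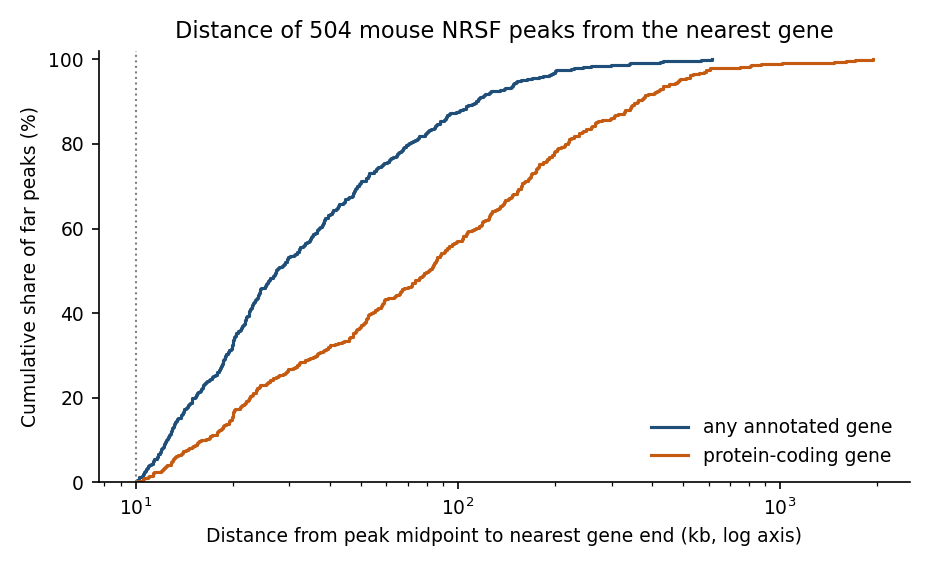
Cumulative share of the 504 far peaks (vertical axis, %) by distance from the midpoint to the nearest gene end (horizontal axis, kb, log scale), for any annotated gene (blue) and for protein-coding genes (orange); the dotted line marks the 10 kb limit. The blue curve reaches 50% at 27.3 kb and the orange one at 80.9 kb.

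At the limit itself, peaks on either side were near-identical in distance. Just within it, the midpoints lay 9952 bp from Arhgap42, 9926 bp from Arc (an activity-induced neuronal gene), 9924 bp from Tor1b, 9904 bp from Gm52481 and 9903 bp from Gm33028. Just beyond it lay the members 10029 bp from 2510039O18Rik, 10031 bp from Osbpl7, 10089 bp from Gm41850, 10258 bp from Gm25486 and 10266 bp from Gm5735. The member beside 2510039O18Rik, on chromosome 4 at 147957145 to 147957545, was also 28441 bp from Nppb, which encodes the natriuretic peptide BNP.

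Peak density fell with distance from genes across the whole range. Far sequence at 10 to 20 kb from a gene held 0.744 peaks per Mb (exact Poisson 95% interval 0.635 to 0.867), and the band from 20 to 50 kb held 0.607. Density was 0.375 per Mb from 50 to 100 kb, 0.291 from 100 to 200 kb (0.214 to 0.386) and 0.165 beyond 200 kb (0.0944 to 0.268). Beyond 100 kb it was 0.327 times that at 10 to 20 kb (95% interval 0.241 to 0.44, exact conditional binomial test, two-sided, p = 1.51e-15). Density outside genes was 1.71 per Mb within 1 kb, 0.948 from 1 to 5 kb and 0.904 from 5 to 10 kb, and the intervals of the bands on either side of the 10 kb limit, 0.768 to 1.06 and 0.635 to 0.867, overlapped. Close peaks are not independent, and the lengths take no account of assembly gaps or of sequence to which reads cannot be assigned.

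**Figure D2:**
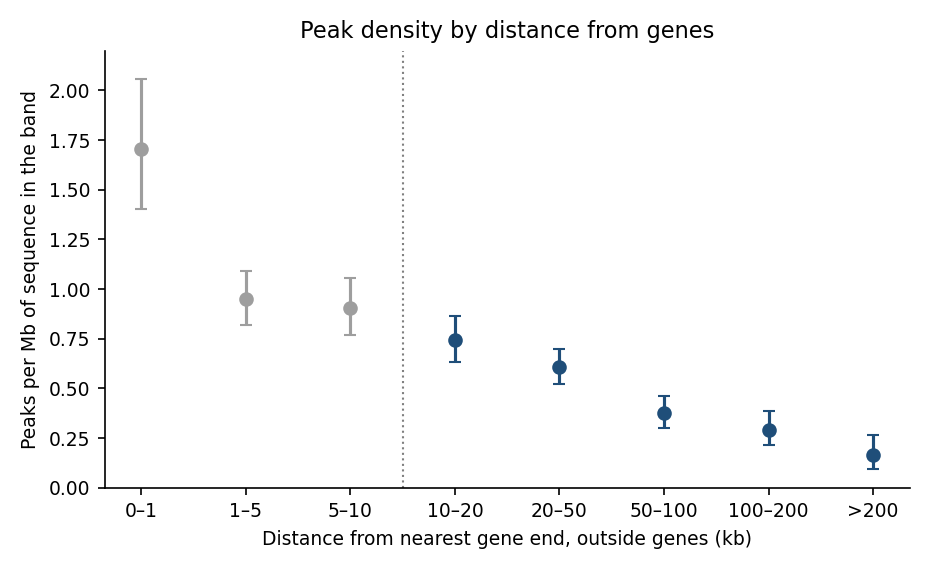
Mouse NRSF peaks per Mb of sequence outside genes (vertical axis) in bands of distance from the nearest gene end (horizontal axis, kb); points are counts over band length with exact Poisson 95% intervals, grey for peaks within 10 kb and blue for far peaks. Density falls from 0.744 per Mb at 10 to 20 kb to 0.165 per Mb beyond 200 kb.

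The gene-free interval around a far peak is the stretch between the nearest gene on its left and the nearest on its right. Peak density was also counted by the length of this interval. The 504 peaks lay in 454 such intervals of the 14478 long enough to hold one, and 409 of the 454 held a single far peak, 40 held a pair and 5 held 3. Short intervals were the denser ones. Those of 20 to 50 kb held 1.095 far peaks per Mb of far sequence (95% interval 0.889 to 1.33), those of 100 to 200 kb held 0.514, and those over 500 kb held 0.185 (0.127 to 0.26), a ratio of 0.169 between the longest and the shortest class (0.11 to 0.253). As single intervals, however, long ones more often held a peak: 13.7% of the 234 over 500 kb had one, against 1.16% of the 7564 from 20 to 50 kb.

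Inside an interval, far peaks were spread almost evenly between edge and centre. When 10 kb was taken off each end, 250 of 504 lay in the outer 50% of what was left (49.6%, exact 95% interval 45.1 to 54.1%). In 5 equal steps from edge to centre the shares were 19.6, 18.5, 19.8, 21.8 and 20.2%. The share in the outer 50% was 45.3 to 51.0% in the 4 classes of intervals up to 500 kb. In the 33 peaks of intervals over 500 kb it was 60.6% (42.1 to 77.1%), which includes 50%. In intervals longer than 200 kb, density was 0.544 per Mb at 10 to 20 kb, from 16 peaks, and 0.244 beyond 100 kb, from 63 peaks (ratio 0.448, 95% interval 0.256 to 0.831, exact conditional binomial test, p = 0.00773, a comparison chosen after the data were seen). That comparison pooled intervals of 200 to 500 kb (0.362 far peaks per Mb) and longer ones (0.185 per Mb). It does not separate distance from interval length.

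**Figure D3:**
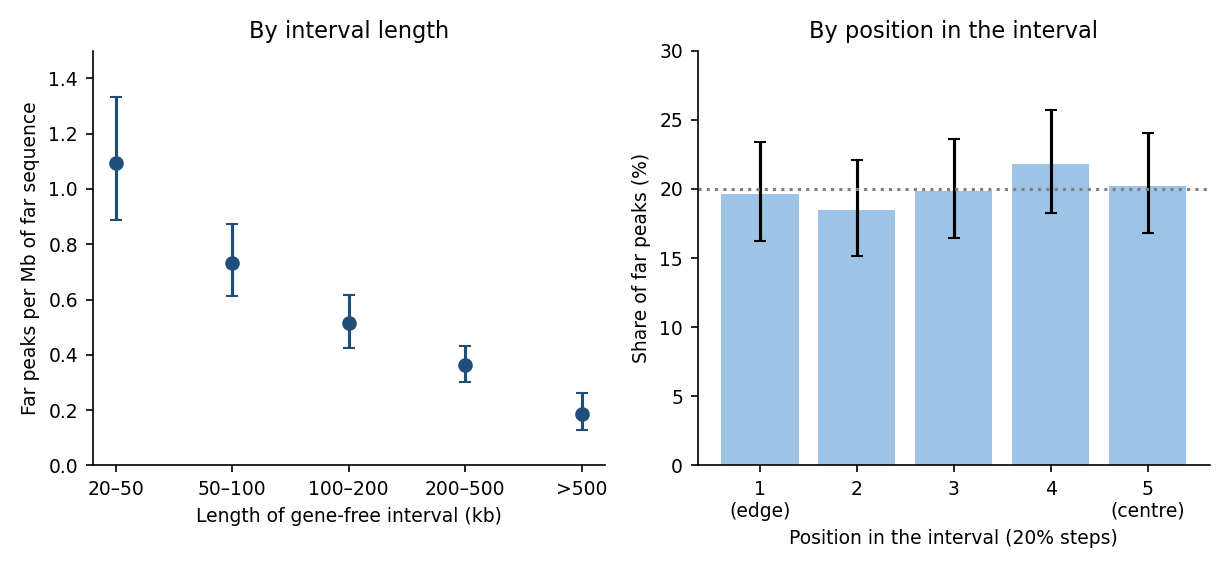
Left, far peaks per Mb of far sequence (vertical axis, exact Poisson 95% intervals) by length of the gene-free interval (horizontal axis, kb). Right, share of the 504 far peaks (bars, %, exact binomial 95% intervals) in 5 equal steps from the edge to the centre of the interval after 10 kb is removed from each end; the dotted line marks 20%. Density falls from 1.095 to 0.185 per Mb with interval length, whereas the shares by position stay between 18.5 and 21.8%.

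The nearest gene was often not protein-coding. A lncRNA gene was nearest to 175 far peaks (34.7%, exact 95% interval 30.6 to 39.1%), a protein-coding gene to 173 (34.3%), a pseudogene to 128 (25.4%) and another RNA gene or segment to 23. Among the 28956 gene borders of all intervals able to hold a far peak, 27.6% belonged to lncRNA genes, 39.2% to protein-coding genes and 27.6% to pseudogenes. Those intervals had a median length of 47.7 kb, against 114.3 kb for the intervals around far peaks. The background was not matched for length, so the shares are not directly comparable. Predicted or unnamed genes, with symbols such as Gm13452 or 1700025J12Rik, were nearest to 334 of the 504. Their share among all those borders was not computed, so this count has no background. Where the strand of the nearest protein-coding gene was known, its 5′ end faced the peak in 209 of 393 cases (53.2%, 48.1 to 58.2%), beside 54.0% of the 12309 borders counted the same way.

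Among the 28956 gene borders, again not matched for interval length, 0.494% belonged to microRNA genes. Their share as the nearest gene of a far peak was 0.992% (exact interval 0.323 to 2.3%), and the interval includes that background. MicroRNA genes were nearest to 5 far peaks. These were Mir122, the liver microRNA, at 10826 bp, Mir466f-4 at 14496 bp, Mir138-1, from a family known for its expression in brain, at 18991 bp, Mir5127 at 38175 bp and Mir30d at 89396 bp. The Mir138-1 peak lay on chromosome 9 at 122701765 to 122702165. The mature products of Mir138-1 are shown to identify the microRNA, from RefSeq on GRCm38.p6, 5′ to 3′, with the seed (bases 2 to 8) in capitals.
mmu-miR-138-5p: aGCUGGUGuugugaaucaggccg
mmu-miR-138-1-3p: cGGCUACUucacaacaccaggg
They are encoded on the plus strand of chromosome 9 at 122682898 to 122682920 and 122682936 to 122682957.

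The 10 most isolated peaks were spread over 6 chromosomes. The farthest of all, on chromosome 14 at 82735005 to 82735405, was 612979 bp from the pseudogene Gm19050 and 670426 bp from the snoRNA gene Gm24774, with the protocadherin gene Pcdh17 at 1708358 bp and Olfm4 at 2712064 bp. Its nearest neighbour among all mouse peaks was 2477925 bp away. Of the 10 farthest, 5 lay on chromosome Y, at 340370 to 570032 bp from the nearest gene. The other 4 were on chromosome 18 at 41154750 to 41155150 (343168 bp from Gm41710, between the protein-coding genes Kctd16 and Prelid2), on chromosome 1 at 146009120 to 146009520 (299161 bp from Gm41965, between Rgs18 and Brinp3), on chromosome 16 at 8078420 to 8078820 (258373 bp from Gm26159) and on chromosome 9 at 5616685 to 5617085 (243851 bp from Casp12). The chromosome 16 peak had Tmem114 at 330656 bp on one side and Rbfox1, a neuronal splicing regulator, at 666140 bp on the other.

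Rbfox1 bordered 5 far peaks in all. Another on the same side as the chromosome 16 peak just given, at 7740405 to 7740805, was 328125 bp from the gene, and the remaining 3 shared 1 of the 5 gene-free intervals with 3 members. These 3 lay on chromosome 16 at 5700875, 5765145 and 5792205 (starts), 183718, 119448 and 92388 bp from the gene, in an interval of 399.8 kb. The gene itself had 3 peaks inside or within 10 kb. On chromosome 4, 3 far peaks at 110087845, 110119405 and 110132015 lay between Dmrta2, a doublesex-related factor of brain development, and Elavl4, a neuronal RNA-binding protein, 104354, 135914 and 148524 bp from the first and 115692, 84132 and 71522 bp from the second. Elavl4 had no peak of its own within 10 kb. On chromosome 17, 3 far peaks at 48858905, 48913455 and 48917415 stood 72485, 17935 and 13975 bp from Lrfn2, a synaptic adhesion protein.

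The other 2 of these intervals were on chromosomes 15 and X. Between the lncRNA genes Gm35772 and Gm41376 on chromosome 15, 3 far peaks at 88104320, 88120375 and 88174325 fell in a protein-coding-free stretch of 840.9 kb from Tafa5 to Zdhhc25. The interval on chromosome X, of 38.8 kb between Btbd35f29 and the pseudogene Gm21711, held the only run of 3 far peaks with each within 10 kb of the next. Its peaks started at 31131285, 31132490 and 31133385, so their midpoints were 1205 and 895 bp apart and 12069, 13274 and 14169 bp from Btbd35f29.

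Counted between protein-coding genes, the far peaks fell in 415 intervals, of which 348 held 1 and 14 held 3 or more. The shortest to hold 4 was that from Btbd35f22 to Gm5923, 109.2 kb on chromosome X. Those from Btbd35f27 to Mycs on X (512.8 kb) and from Cdh26 to 4930591A17Rik on chromosome 2 (927.6 kb) held 4 as well. The interval from Sall3, a zinc-finger factor, to Galr1, a galanin receptor, held 4 in 1405 kb on chromosome 18. The 473 kb from Ajap1 to A430005L14Rik on chromosome 4 also held 4. The neighbouring interval from Nphp4 to Ajap1 held 3 more, and the megabase from 153 to 154 Mb on chromosome 4 had 6 far peaks, the most of any. The intervals in this paragraph were singled out after their counts were seen.

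Some far peaks stood beside genes of neuronal function. Of 11254 protein-coding genes that border an interval able to hold a far peak, 793 bordered one that did, a background of 7.05%. Of the 288 such genes in 6 neuronal lists, 51 bordered a far peak (17.7%, exact 95% interval 13.5 to 22.6%). These lists rest on textbook knowledge and were compiled with earlier results of these data known, so their share is not independent evidence, and no test over a list was made. Neuronal genes also border longer intervals, with a median of 340 kb against 77.3 kb for all bordering genes.

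The 7.05% background was not matched for interval length. Among all bordering genes the share with a far peak rose with that length, from 2.13% to 25.1%. Beside intervals over 500 kb, 24 of 112 neuronal genes had a far peak (21.4%, 14.2 to 30.2%), against a background of 25.1%. From 200 to 500 kb the share was 16 of 76 (21.1%) against 14.8%, and from 100 to 200 kb it was 3 of 28 (10.7%) against 5.91%. Below 100 kb it was 8 of 72 (11.1%, 4.92 to 20.7%) against 2.13%. Of the 4 classes, the exact interval lay wholly above the background in the shortest alone.

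Among ion channel genes, 9 of 40 bordered a far peak (22.5%). The closest were Cacna2d2, an auxiliary subunit of voltage-gated calcium channels, at 17833 bp, Kcnk9, a background potassium channel, at 20111 bp, and Kcna4, a voltage-gated potassium channel, at 32244 bp. Synaptic vesicle and exocytosis genes followed with 5 of 23 (21.7%). They included Slc32a1, which loads GABA and glycine into vesicles, at 22475 and 36715 bp from far peaks in the same interval, Erc2, a scaffold of the presynaptic active zone, at 25790 bp, and Cplx2, a complexin, at 41509 bp. The median interval of this list was 98.2 kb, against 77.3 kb for all bordering genes, and its share had a wide exact interval (7.46 to 43.7%). Myeloid markers (13.0%) and ribosomal and housekeeping genes (11.1%), given below, had shorter medians of 56.4 and 52.4 kb.

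Adhesion and guidance genes had 13 of 67 (19.4%), in the longest intervals of any list with a median of 1100.0 kb. Flrt2, a repulsive guidance and adhesion protein, had a far peak at 12300 bp, Nrxn3, a presynaptic neurexin, at 13186 bp and Sema3e, a secreted semaphorin, at 103941 bp. Neuronal transcription and RNA regulators had 11 of 67 (16.4%). Rbfox3, the splicing factor known as the antigen NeuN, had a far peak at 15678 bp besides 7 peaks inside or within 10 kb, Onecut2 had one at 29312 bp and Lhx2, a LIM homeodomain factor, at 48428 bp.

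Neurotransmitter receptors had 8 of 54 (14.8%) and neuropeptides, granins and neurotrophins 5 of 37 (13.5%), and both exact intervals, 6.62 to 27.1% and 4.54 to 28.8%, include the background. The closest receptors were Gabra2, a GABA-A receptor subunit, at 32236 bp, the dopamine receptor gene Drd1 at 102918 bp and Gria1, an AMPA receptor subunit, at 104111 bp. The closest peptide genes were Cartpt, the precursor of a hypothalamic peptide, at 11301 bp, Pdyn, the precursor of dynorphins, at 15927 bp and Nppb at 28441 bp.

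In the comparison lists, 9 of 67 developmental factors of other tissues bordered a far peak (13.4%, 6.33 to 24.0%). Foxa2, an endoderm factor, was closest at 170376 bp, followed by Sall3 at 174079 bp and Sall1 at 203057 bp, and none of these 9 genes had a peak of its own. Myeloid markers had 3 of 23 (13.0%, 2.77 to 33.6%), namely the chemokine receptor gene Ccr2 at 21173 bp, Csf3r, the receptor for granulocyte colony-stimulating factor, at 26656 bp and the scavenger receptor gene Marco at 83993 bp. Ribosomal and housekeeping genes had 1 of 9, Rpl11, at 66712 bp. The intervals of the 3 lists include the background and overlap those of the neuronal lists.

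**Figure D4:**
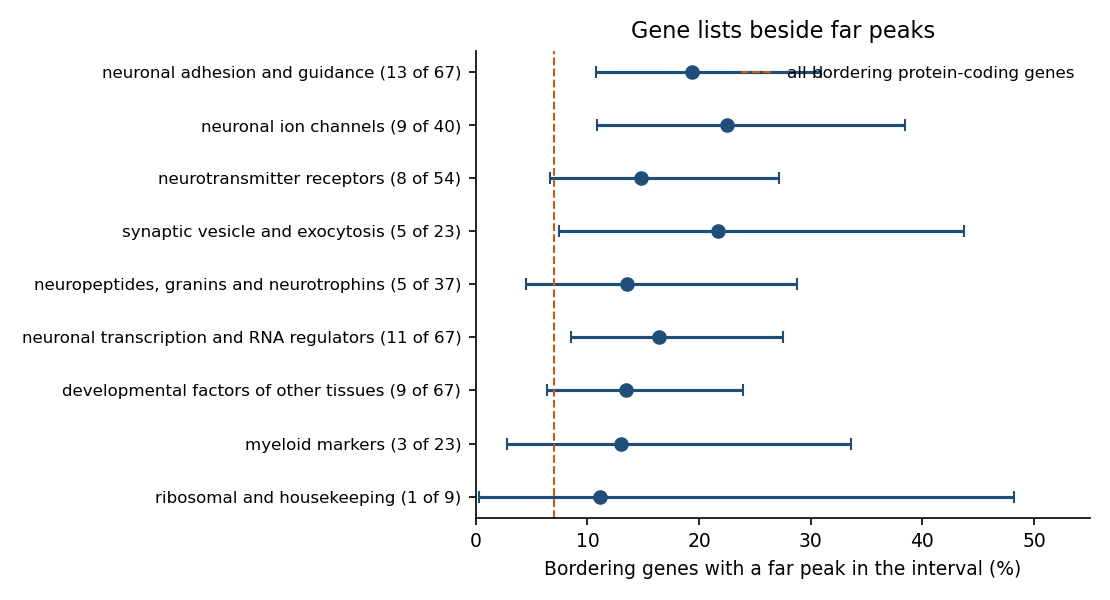
Share of the bordering protein-coding genes of each list that had a far peak in an adjoining interval (horizontal axis, %, exact binomial 95% intervals, counts in brackets); the dashed line is the 7.05% of all 11254 bordering genes. Ion channels stand highest at 22.5% and ribosomal and housekeeping genes lowest at 11.1%, with wide intervals, and interval length differs between lists.

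A minority of the genes beside a far peak also had peaks of their own. Of the 793 bordering genes with a far peak, 104 had another mouse peak inside or within 10 kb (13.1%, 10.8 to 15.7%), and of the 10461 without one, 735 had (7.03%, 6.54 to 7.53%). Within the neuronal lists the shares were 20 of 51 (39.2%, 25.8 to 53.9%) and 85 of 237 (35.9%, 29.8 to 42.3%). In those lists the intervals overlapped almost wholly. These differences were not tested, and the groups were not matched for gene or interval length.

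Far peaks were spread unevenly over the chromosomes even against far length. By exact binomial tests with Benjamini-Hochberg adjustment over 21 chromosomes, 4 were off their share (19.0%), chromosomes 2 and 7 above it and chromosomes 1 and 3 below. Chromosome 7 had 35 far peaks, 1.82 times its share (exact binomial test, adjusted p = 0.0101), and chromosome 2 had 43, 1.64 times (adjusted p = 0.012). Other peaks were dense on chromosome 7 too, at 1.70 per Mb of the remaining sequence against 1.10 over all chromosomes. On chromosome 2 they stood at 1.08 per Mb. Far peaks were 16.2% of the 216 peaks on chromosome 7 and 24.0% of the 179 on chromosome 2, against 21.4% of the whole list. Chromosome 1 had 17, 0.45 times its share (exact binomial test, adjusted p = 0.00372), and chromosome 3 had 20, 0.576 times (adjusted p = 0.0422). The call for chromosome 3 was lost when close peaks were merged and when the 1 Mb bins with 10 or more mouse peaks were left out, whereas those for chromosomes 1, 2 and 7 were kept in both. With autosomes alone all 4 calls were kept, and chromosome 3 was at 0.543 times its share (exact binomial test, adjusted p = 0.0158). Against the whole annotated length, chromosome 1 alone remained off its share, at 0.467 times (exact binomial test, adjusted p = 0.00801).

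Density ran from 0.222 per Mb on chromosome 1 to 0.9 per Mb on chromosome 7 among the 19 autosomes, and on each autosome it was below that of the other peaks. Chromosomes with more far peaks per Mb tended to have more of the other peaks too (Spearman's rho 0.514 over the 19 autosomes, 0.583 over all 21 chromosomes, a description, since all chromosomes share the same libraries and differ in base composition). On chromosome X, far sequence held 0.357 peaks per Mb (exact Poisson 95% interval 0.243 to 0.507) and the rest 0.286, which that interval includes. As over all chromosomes, the rule fixed this comparison, so it is a description.

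**Figure D5:**
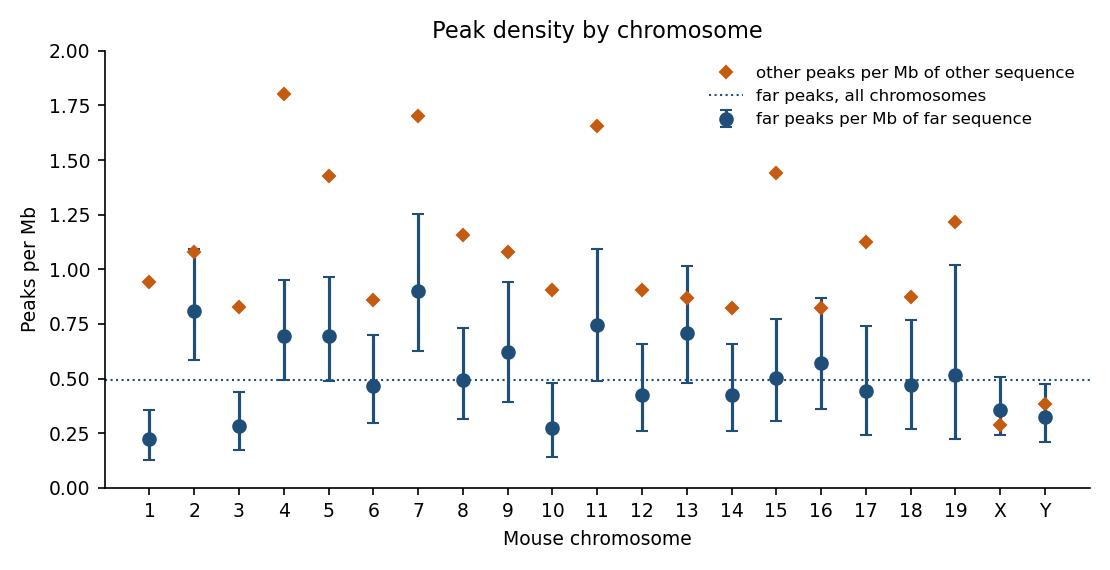
Far peaks per Mb of far sequence (blue, exact Poisson 95% intervals) and other peaks per Mb of the remaining sequence (orange) on each mouse chromosome; the dotted line is the density of far peaks over all chromosomes. Far peaks are least dense on chromosome 1 (0.222 per Mb) and densest on chromosome 7 (0.9 per Mb), and on X the blue point lies above the orange one.

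Some far peaks on chromosome 7 were set among clustered gene families. Of its 35, 11 had a protein-coding neighbour of the families Vmn (vomeronasal receptors), Scgb2b (secretoglobins), Cyp2a (cytochrome P450), Nlrp or Obox, at 11931 to 52797 bp from the nearest gene. The Cyp2a4 and Cyp2a5 genes each had a far peak, at 20052 and 20051 bp. These 5 families were picked after their positions were seen, with no background share computed. Of 2 other clustered families, olfactory receptors (Olfr) bordered 4 far peaks on all chromosomes and 1 on chromosome 7, and zinc-finger genes (Zfp) bordered 11 and 2. Genes of such families can be near-identical copies. How reads of repeated sequence were assigned is not given in the sources used here, and its part in these counts was not tested.

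Chromosome X carried 31 far peaks of its 55 peaks (56.4%). Of these, 22 stood beside a gene of the Btbd35f family, between 3358275 and 34465655, next to 10 of the 30 Btbd35f genes on X. In that group 15 of the 22 had another mouse peak within 10 kb. The whole stretch between those positions held 32 of the 55 mouse peaks on X. The family was singled out after its positions were seen, with no background share computed. How reads of repeated sequence were assigned is not given here either. Chromosome Y, most of which is far from annotated genes (88.5% of its annotated range), had 26 far peaks of 30. Their median distance to a gene was 109.8 kb, compared with 22.4 kb on X and 26.6 kb on the autosomes. The X and Y far peaks were at 0.723 and 0.656 times their share of far length and did not pass the test (exact binomial, adjusted p = 0.125 and 0.0961). Without Y, the ratio of densities beyond 100 kb and at 10 to 20 kb was 0.28 (0.198 to 0.388).

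A close neighbour was uncommon both among far peaks and among the other peaks. Of the 504, 46 had another mouse peak within 10 kb (9.13%, 6.76 to 12.0%), and of the other 1853 peaks 207 had (11.2%, 9.77 to 12.7%). This difference did not pass Fisher's exact test, two-sided (p = 0.195), and its odds ratio of 0.799 had an interval of 0.558 to 1.12. A neighbour within 50 kb was found for 21.4% of far peaks and 28.8% of the rest (odds ratio 0.676, 0.529 to 0.858, Fisher's exact test, p = 0.00104). The median distance to the nearest other peak was 289.9 kb for far peaks and 159.9 kb for the rest. Far sequence also held fewer peaks per Mb (0.494 against 1.10). None of the comparisons in this paragraph separates spacing from that density. The result within 10 kb depended on which peaks were counted. With chromosome X left out of both groups, a choice made after its close pairs were seen, 31 of 473 far peaks (6.55%) and 207 of 1829 others (11.3%) had a close neighbour (odds ratio 0.55, 0.359 to 0.818, Fisher's exact test, p = 0.00219). Without the 1 Mb bins that hold 10 or more mouse peaks, the odds ratio was 0.976 (0.66 to 1.42, Fisher's exact test, p = 1). In 39 of the 46 cases the closest peak was itself far from genes. A peak within 10 kb of a far peak must lie in the same gene-free interval, so the rule favoured this outcome. Both peaks of a pair were counted separately in these tests although they are not independent.

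The 19 runs of far peaks within 10 kb of each other took in 39 members. Apart from the run of 3 beside Btbd35f29, all were pairs, with midpoints 480 to 9840 bp apart. The tightest pair lay on chromosome 11 at 23131155 to 23132035, and 7 of the 19 runs were on chromosome X. A pair on chromosome 17 stood 3960 bp apart next to Lrfn2, and a pair on chromosome 16 stood 1750 bp apart, with the pseudogene Gm24695 nearest at 18287 and 16537 bp. Its protein-coding neighbours were Ifnar2, an interferon receptor subunit, at 41438 and 39688 bp and Olig1, a factor of oligodendrocyte development, at 59406 and 61156 bp. This pair was named after its position was seen.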

How the data were processed

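ChIP-seq of NRSF in RAW264.7 cells gave 1 mouse peak list for 2 precipitated samples and 1 input sample. The authors deposited positions only, as chromosome, start and end (each peak 400 bp wide), with no score or count. Bowtie 0.12.8 and MACS 1.4.2 are named without a role, and mm10 among the builds, per the submitters' processing notes. Neither the threshold nor how the replicates were joined is given in the sources used here.

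Gene spans (49943 genes, 21887 protein-coding) came from the RefSeq table of GRCm38.p6, the assembly mm10 denotes, which is of C57BL/6J. Strand came from the RefSeq promoter table. The midpoint was (start + end) / 2. No genome sequence was used, so the peaks' own sequences and motifs are not shown. Members, lists (9, of which 6 neuronal; all 495 entries matched) and tests were chosen with earlier results of these data known. Named were the 10 farthest members, the 5 peaks on either side of the limit, the 5 intervals with the most members, runs of 3 or more, and the 3 closest genes of each list. Tests were exact binomial, conditional binomial and Fisher's tests (threshold 0.05), with Python 3.11.15, scipy 1.17.1, numpy 2.4.6 and pandas 2.3.3. Of these tests, only the conditional binomial was tried on simulated data.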

Additional observations from a re-analysis of the deposited data

How the results depend on the processing

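In all, 29 alternatives were run. In 20, tests kept their call, and counts and shares stayed within 1.5 times or inside the interval of the reported value. These 20 include the close neighbour within 2 kb, whose odds ratio changed direction (1.22 against 0.799) with neither past the threshold. The number of far peaks was 147 with a reach of 50 kb, 836 when protein-coding genes alone were counted and 785 without predicted or unnamed genes. The median distance was then 71161 bp and 68077 bp. These changes follow from the reach or the gene set used. The odds ratio for a close neighbour was past the threshold within 50 kb (0.676), with a reach of 20 kb (0.535) and, chosen after the data were seen, without chromosome X in both groups (0.55). It was not past the threshold within 2 kb (1.22) or without the 1 Mb bins with 10 or more peaks (0.976). Against the whole annotated length, 1 chromosome was off its share instead of 4. With close peaks merged, chromosome X was below its share (0.563 times, exact binomial test, adjusted p = 0.0124) and chromosome 3 no longer was, nor was it without those bins. With autosomes alone, the same 4 chromosomes were called, chromosome 3 among them. The ratio of densities ran from 0.28 to 0.456 over its alternatives. No paired analysis was possible because 1 list stands for both replicates, and for the same reason no replicate could be left out. A stricter peak threshold could not be tried without scores, and the depth that limits detection is unknown.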

Other observations

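In 5 pairs of far peaks on the same chromosome, the distances to the nearest gene differed by at most 10 bp. A pair on chromosome Y lay 87996 and 87998 bp from Gm21476 and Gm20895, and another lay 48019 and 48024 bp from Gm20739 and Gm21393. The pair on chromosome 7 was that of Cyp2a5 and Cyp2a4. On chromosome X, the peak 11973 bp from Gm36049 matched those at 11967 bp from Gm5925 and at 11979 bp from Btbd35f25. How many such pairs an uneven spread of peaks gives was not computed.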
